A study of Mus musculus with 2 samples.

Results

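The genes of DNA replication and deoxynucleotide synthesis were examined as a set of 48 named members, chosen by gene name among the non-control probes of 2 mouse gene expression arrays. They are 48 of the 36493 gene names on the array, and 59 probes carried them. For a member with several probes, the brightest (mean of both arrays) was used. Both samples held neural stem and progenitor cells, or NSPCs, made from mouse embryonic stem cells by way of embryoid bodies and grown as tertiary neurospheres, which are floating balls of dividing neural cells. They were at passage 2 and at day 18 of culture counted from the embryoid bodies. The treated culture overexpressed the microRNA miR-153 and the other was its overexpression control, called miR-153 cells and control cells below. There was 1 array per group, so the differences below come without replicates or p-values. The construct, its promoter, the number of clones and the embryonic stem cell line are not given in the sources used here.

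The signals of 12 markers of the labelled cell type, neural stem and progenitor cells, were read first. All 12 were well above background on both arrays, among them Nes, the filament gene used to recognise these cells, at a signal of 18255 intensity units in control cells and 11887 in miR-153 cells, and the transcription factor gene Sox2 at 4263 and 6591. All 15 neuron markers and all 9 astrocyte markers read below were also well above background on both arrays. Detection therefore does not tell these cell types apart. Signal was well above background at 52.5% of the 59305 non-control spots in control cells and at 55.6% in miR-153 cells, and no spot was saturated.

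A cell copies its genome once per division. In G1 the origin recognition complex and the loading factors place the ring-shaped MCM helicase on DNA, which is called licensing. In S phase partner proteins turn that ring into an active helicase, polymerases copy the opened strands behind it, a sliding clamp and its loader hold the polymerases on DNA, and nucleases and a ligase join the short fragments of the lagging strand. Deoxynucleotides are supplied by ribonucleotide reductase, thymidylate synthase and thymidine kinase, and chromatin assembly factor puts histones back on the copied strands. Many of these genes are transcribed at the G1 to S boundary under E2F factors. In neurospheres they mark cells that are cycling, since neurons and mature glia leave the cycle.

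The agent that differed between the samples, miR-153, is printed first, with bases 2 to 8, the seed that pairs with targets, in capitals. Both mature arms are from RefSeq (GRCm38.p6). The labels do not say which arm was raised, and the probes did not measure either.
mmu-miR-153-5p: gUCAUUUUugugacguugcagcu
mmu-miR-153-3p: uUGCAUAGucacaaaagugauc

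Replication genes were lower in miR-153 cells almost throughout. Of the 47 members well above background on both arrays, 31 (66.0%) were at least 2-fold lower there, 0 were at least 2-fold higher and 16 lay between. Over all 20473 measured genes, 11.1% were at least 2-fold lower and 9.21% at least 2-fold higher. The remaining member, Orc1, was well above background in control cells only and had an approximate bound of 5.62-fold lower. Below 0 on the log2 scale were 44 of the 47 members, against 56.1% of all measured genes. The median difference, always taken as the log2 level in miR-153 cells less that in control cells, was -1.28 over the members and -0.11 over all measured genes. Over the 13099 measured genes matched to RefSeq, as 47 of the 48 members were, the median was 0.007. Of these 13099 genes, 1290 were at least 2-fold lower and 1446 at least 2-fold higher. A level below is log2 of the signal minus the 75th percentile of its array, in log2 units. In such bulk RNA, fewer cells of a type and less RNA per cell cannot be told apart.

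These sizes can be set against 2 technical spreads. Single spots of a repeated probe had a median SD of 0.075 in the difference, over 288 probes, and different probes of a gene an SD of 0.46, over 3442 genes. Of the 47 members, 42 differed by more than the larger of these. The 5 within it were Orc3, Orc5, Gins4, Pold3 and Rfc2. Many other genes exceeded it too, since the quartiles of the difference over all measured genes were -0.58 and 0.40. Neither spread is one between replicate cultures. At least 4-fold lower were 8 members, against 2.39% of all measured genes. They were Tk1, Pole, Rrm2, Pole2, Gmnn, Mcm10, Mcm6 and Chaf1b. Only Tk1, Pole and Rrm2 stayed at least 4-fold lower under every processing alternative, with highest values of -2.77, -2.18 and -2.12. Pole2, Gmnn, Mcm10, Mcm6 and Chaf1b each came short of 4-fold under some alternative, Mcm6 at -1.77.

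**Figure D1:**
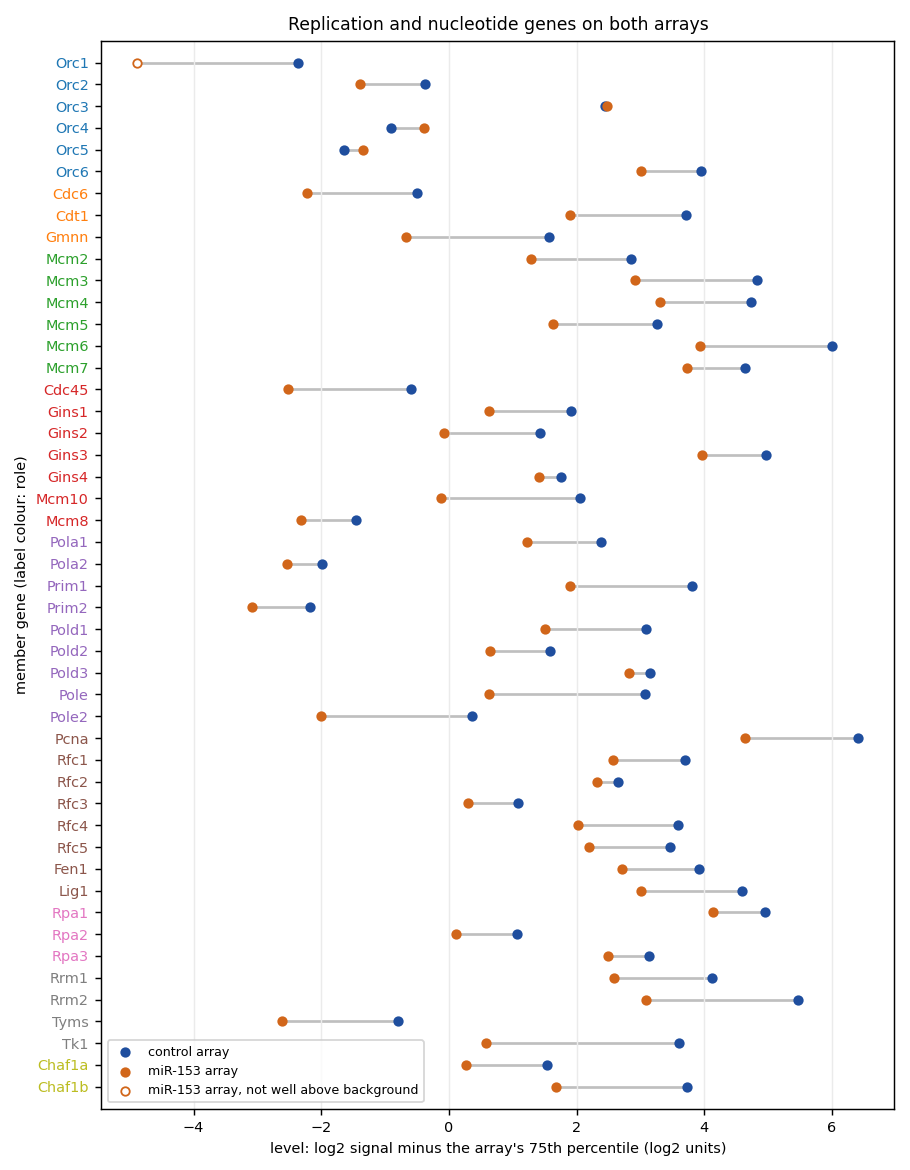
Level of each of the 48 members in control cells (blue) and miR-153 cells (orange), in log2 units relative to the 75th percentile of each array, with gene labels coloured by role and an open point where a probe was not well above background. Orange points lie left of blue ones for every member but Orc3, Orc4 and Orc5, and the longest line among the genes measured on both arrays is that of Tk1.

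The origin recognition complex, which marks where replication starts, was split. Orc1, the subunit whose level follows the cell cycle, was at -2.37 in control cells and at -4.88 in miR-153 cells, where it was not well above background. Its bound is set against -4.86, the dimmest level that still counted as well above background in miR-153 cells. The bound is approximate, since a probe of another gene at -4.72 in those cells was not well above background. Orc2 was at -0.37 in control cells and -1.39 in miR-153 cells, 2.02-fold lower (-1.02). Orc6, which takes part in helicase loading, was at 3.96 and 3.0, 1.93-fold lower (-0.95) and just short of the 2-fold rule.

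The other three subunits were not lower. Orc3 was at 2.44 in control cells and 2.48 in miR-153 cells (0.04), and a second probe gave 0.55. Orc5 was at -1.65 and -1.35 (0.30). Orc4 was at -0.92 and -0.39 (0.53), but its second probe gave -0.35, so the direction of Orc4 depends on the probe. The median of the 5 subunits measured on both arrays was 0.04, or -0.45 over all 6 with no filter on dim probes.

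Loading factors were lower without exception. Cdc6, the ATPase that helps load the helicase, stood at -0.51 in control cells and -2.23 in miR-153 cells, a 3.29-fold difference (-1.72), and its second probe gave -1.59. Cdt1, its partner in loading, stood at 3.71 and 1.90, 3.52-fold lower (-1.82). Gmnn encodes geminin, which binds Cdt1 and blocks loading a second time in the same cycle. It stood at 1.56 and -0.68, 4.72-fold lower (-2.24). Another probe under this name, at -1.82, is annotated to the opposite strand and is no second measure of geminin. The inhibitor was lower along with the factor it inhibits.

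All 6 genes of the MCM ring, the motor of the helicase, were lower, 5 of them by at least 2-fold, with a median of -1.60. Mcm6 had the largest difference, from 6.0 in control cells to 3.94 in miR-153 cells (4.17-fold, -2.06). Mcm3 went from 4.82 to 2.91 (-1.91), and its second probe, which overlaps the first in position, gave -1.89. Mcm5 (-1.62), Mcm2 (-1.58) and Mcm4 (-1.42) followed. Mcm7 differed least, from 4.63 to 3.73 (1.88-fold, -0.91). These proteins act as a ring with each subunit present once, and the differences between their transcripts spanned 1.15 log2 units. The Mcm6 probe lay at chr1:130228178-130228237 and the Mcm7 probe at chr5:138605925-138605984, on mm9 as in the file headers' annotation.

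Partners of the helicase were lower too, 5 of 7 by at least 2-fold, with a median of -1.28. Mcm10, which helps activate the helicase, was at 2.06 in control cells and -0.12 in miR-153 cells, 4.52-fold lower (-2.18). Cdc45, the subunit that joins the ring when it starts to unwind, was at -0.59 and -2.53, 3.82-fold lower (-1.93). The 4 GINS genes encode a tight complex bound to the same ring, and they were uneven. Gins2 was at -1.51, Gins1 at -1.28 and Gins3 at -1.01, while Gins4 was nearly level, from 1.76 to 1.40 (-0.36). Mcm8, a related helicase of recombination that is not part of the replicative ring, was at -0.87, with a second probe at -0.94.

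Among polymerases and primase, 5 of 9 genes were at least 2-fold lower and 9 of 9 were below 0, with a median of -1.16. The 2 members from polymerase epsilon, the leading strand enzyme, had the lowest values of the 9. Pole, its catalytic subunit, went from 3.07 in control cells to 0.62 in miR-153 cells (5.45-fold, -2.44), with a second probe at -2.49. Pole2, the next subunit, went from 0.36 to -2.0 (5.16-fold, -2.37).

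Polymerase delta, which copies the lagging strand, had differences graded by subunit. Its catalytic subunit gene Pold1 was at 3.08 and 1.5 (3.01-fold lower, -1.59), Pold2 was at -0.94, and Pold3 was at 3.14 and 2.82 (-0.33). In the enzyme that starts each fragment, the primase gene Prim1 was at 3.81 and 1.89 (3.78-fold lower, -1.92) and the catalytic gene Pola1 at -1.16. The accessory genes Prim2 (-0.90) and Pola2 (-0.54) were dimmer and differed less. Before scaling, the signal of Pold3 was 3849 intensity units in control cells and 3876 in miR-153 cells, so its sign comes from the scaling.

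The clamp, its loader and the joining enzymes had 6 of 8 genes at least 2-fold lower, with a median of -1.25. Pcna, the sliding clamp, was at 6.41 in control cells and 4.64 in miR-153 cells, 3.41-fold lower (-1.77). The RefSeq table lists the pseudogenes Pcna-ps1 and Pcna-ps2, so the Pcna probe may not be specific. Lig1, the ligase that seals the fragments, was at 4.60 and 3.0 (3.02-fold, -1.59), and Fen1, the nuclease that trims them, at -1.21. The loader genes ranged widely. Rfc4 was at -1.56 with a second probe at -1.36, Rfc5 at -1.28, Rfc1 at -1.13 and Rfc3 at -0.79, and Rfc2 was nearly level, from 2.64 to 2.32 (-0.32). Before scaling, the signal of Rfc2 was 2721 intensity units in control cells and 2746 in miR-153 cells. Like that of Pold3, its sign comes from the scaling.

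The 3 genes of replication protein A, which coats single-stranded DNA in replication and in repair, differed by less than 2-fold. Rpa2 was at 1.06 in control cells and 0.11 in miR-153 cells (-0.94), Rpa1 at 4.95 and 4.13 (-0.82) with a second probe at -0.64, and Rpa3 at 3.13 and 2.49 (-0.64). All of them were below 0.

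Nucleotide supply had the lowest median of the 9 roles, -2.10, and 4 of 4 genes were at least 2-fold lower. Tk1, the thymidine kinase of the cytosol in cycling cells, had the largest difference among the members measured on both arrays, from 3.60 in control cells to 0.57 in miR-153 cells (8.17-fold, -3.03). Its probe lay at chr11:117676845-117676904 on mm9. Rrm2, the small subunit of ribonucleotide reductase, whose amount is limited to S phase and G2, went from 5.47 to 3.09 (5.22-fold, -2.38). Rrm1, the more stable large subunit, went from 4.13 to 2.59 (2.90-fold, -1.53). Tyms, which makes thymidylate, went from -0.80 to -2.61 (3.52-fold, -1.81), and a listed pseudogene, Tyms-ps, leaves its probe's specificity uncertain.

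Chromatin assembly factor, which follows the clamp and deposits new histones, was lower in both subunits measured. Chaf1b was at 3.73 in control cells and 1.68 in miR-153 cells, 4.13-fold lower (-2.04), with a second, overlapping probe at -2.24. Chaf1a was at 1.53 and 0.27, 2.39-fold lower (-1.26).

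**Figure D2:**
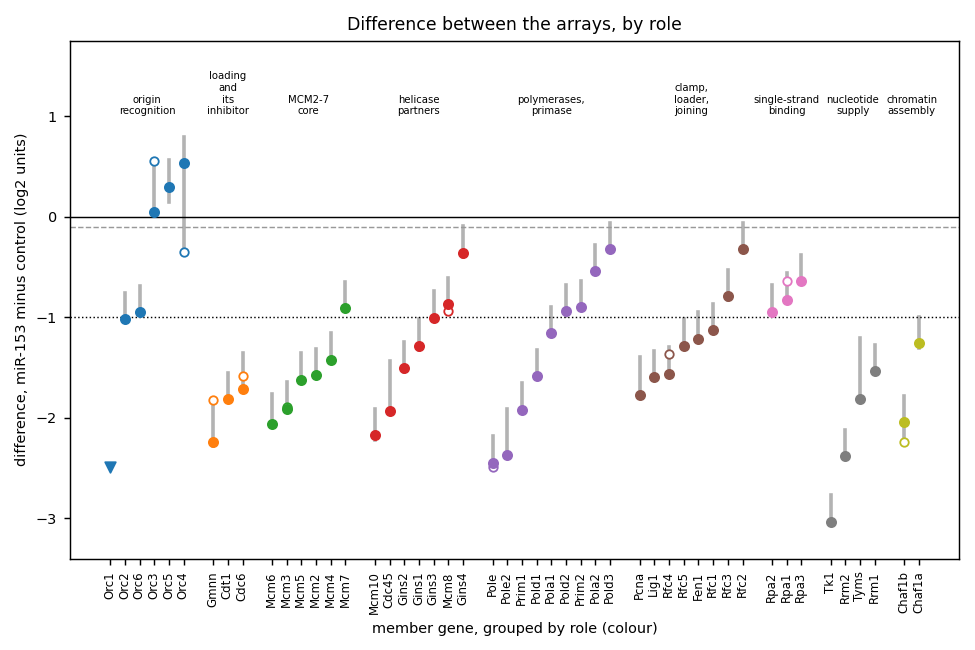
Difference between the arrays in log2 units for each member, grouped by role, with filled points for the brightest probe, open points for other measured probes (that of Gmnn on the opposite strand), a triangle for the bound of Orc1 and grey bars for the lowest and highest value over the processing alternatives. The dotted line is 2-fold lower and the dashed line the median of all measured genes, -0.11. Orc3, Orc4 and Orc5 stand above 0, and Gins4, Pold3 and Rfc2 stand nearest to 0 among the rest.

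Of 9 members with several probes on their own strand measured on both arrays, 8 had the same sign on every probe, and Orc4 was the exception. A single probe carried each of 38 members, and Gmnn had 1 on each strand. Of the 48 members, 47 had a brightest probe whose accession matched the RefSeq gene table under the same name, and the Mcm3 probe carried an accession of another kind.

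Lists of neighbouring genes were read by the same rule. Of 30 other replication factors, 19 were at least 2-fold lower and 0 higher, with a median of -1.35. The 3 lowest were Ticrr (-2.55) and Dbf4 (-2.10), which act when origins fire, and the topoisomerase gene Top2a (-2.09), which is also on the mitosis list. The remaining polymerase subunits were uneven as well. Pole4 was at -1.36, Pole3 at -0.70 and Pold4 at -0.50, all 3 named after their values were seen. Of 11 other genes of chromatin behind the fork, 6 were at least 2-fold lower, led by Uhrf1 (-2.14), Hells (-2.03) and Asf1b (-1.67), and 0 higher. With spike-in scaling 3 of them were lower and 1 higher.

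The rest of nucleotide synthesis differed less than the 4 members. Of 28 such genes, 10 were at least 2-fold lower, 1 was higher and 17 lay between, with a median of -0.70. Among the lowest were Cad (-1.89), which starts pyrimidine synthesis, and Shmt1 (-1.71), which serves the folate cycle that Tyms draws on. Both came short of 2-fold under an alternative, Cad at -0.95 with normexp background correction and Shmt1 at -0.86 on its second brightest probe. The higher gene was Tk2, the mitochondrial thymidine kinase, at a level of -0.61 in control cells and 0.73 in miR-153 cells, 2.53-fold higher (1.34).

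Several pairs of related genes stood on opposite sides of 0. Tk1 was at -3.03 and Tk2 at 1.34. Rrm2 was at -2.38, and Rrm2b, the reductase subunit used outside S phase, went from -3.28 in control cells to -2.77 in miR-153 cells (0.51). Among histone chaperones, Asf1b was at -1.67 and Asf1a, its relative, at 0.83. In each of these 3 pairs the member of S phase was lower and its relative above 0, and the signs held under every alternative, with Rrm2b down to 0.06 under 1 of them. Dguok, another mitochondrial deoxynucleoside kinase, went from -0.45 to 0.24 (0.69). Rrm2b, Dguok and Asf1a were short of the 2-fold rule and were named after their values were seen, so the pairs are a description.

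Cell cycle genes outside S phase set the members in context. On a list of 40 mitosis genes, 2-fold or more lower were 38 of the 39 measured on both arrays, with a median of -2.19 against -1.28 for the members. On a list of 40 repair and checkpoint genes, 11 of 39 were at least 2-fold lower and 1 higher, with a median of -0.53. Of 13 E2F and Rb family genes, 5 were at least 2-fold lower, with a median of -0.46. The 3 lowest were E2f8 (-2.46), E2f2 (-2.0) and E2f7 (-1.86), and 0 were at least 2-fold higher. The value of E2f7 rests on its brightest probe, since the second brightest gave 0.07. No difference between these lists was tested, since there was 1 array per group.

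**Figure D3:**
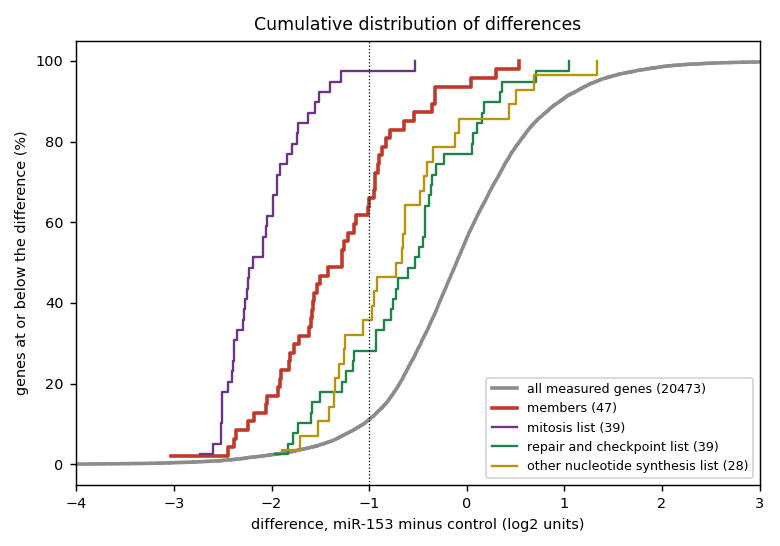
Percentage of genes at or below each difference (log2 units, miR-153 minus control) for all 20473 measured genes, the 47 measured members and 3 comparison lists, with a dotted line at 2-fold lower. The member curve crosses that line at 66.0% and the curve of all genes at 11.1%. The mitosis curve lies to the left of the members except at its lowest end. There the member Tk1 (-3.03) is below the lowest mitosis gene measured on both arrays (-2.73).

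The members were compared with genes of like brightness, because bright genes as a whole were lower in miR-153 cells. All measured genes were put into 8 equal bins of mean level, and the brightest bin had a median of -0.43 while the other 7 ranged from -0.23 to 0.04. Above the median level of measured genes lay 37 of the 47 members, but only 6 were in the brightest bin. After the median of its own bin was subtracted from each, the median of the members was -1.31. The order within the MCM ring changed by this measure, with Mcm3 lowest (-1.86), Mcm6 at -1.63 and Mcm7 at -0.48. In the 4 brighter bins, 8.89% of all genes were at least 2-fold lower. Housekeeping genes, a list of 19 measured, had 6 at least 2-fold lower, 0 higher and a median of -0.46.

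**Figure D4:**
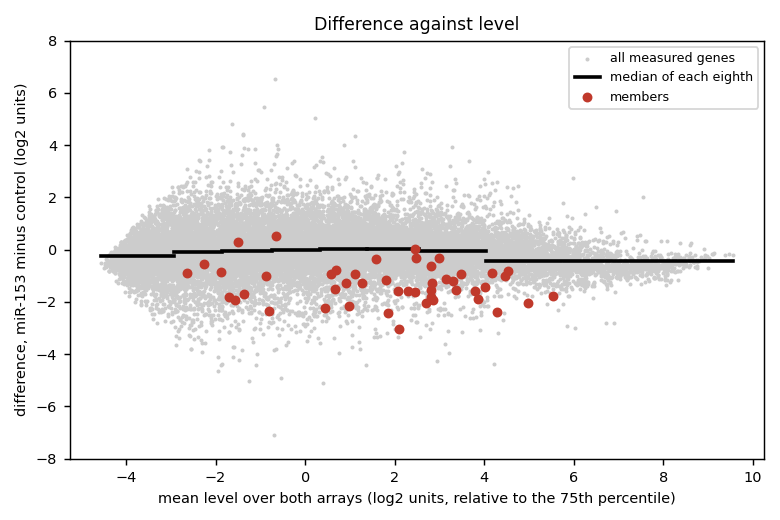
Difference between the arrays against mean level over both, in log2 units, for all measured genes (grey), the members (red) and the median of each of 8 equal bins of level (black). Each member lies below the median of its own bin, apart from Orc3, Orc4 and Orc5. Orc4 is the only member in its bin, and the dimmest bin holds 0. The black line drops to -0.43 only in the brightest bin.

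Neurons have left the cell cycle, and their markers were mostly higher. Of 15 neuron markers, each well above background in both samples, 8 were 2-fold or more higher in miR-153 cells and 3 lower, with a median of 1.03. Their summed signal, in units of the 75th percentile of each array, was 162 in control cells and 241 in miR-153 cells. Dcx, of young neurons, had the largest difference of the 15 and was 7.83-fold higher. The 3 lower ones were Nefm (3.34-fold lower), Gap43 (2.83-fold) and Nefl (2.49-fold). Of 13 oligodendrocyte markers, 6 were higher and 1 lower among the 11 measured on both. The summed signals of these 11 were 90.0 and 132. Enpp6 and Myrf, outside those sums, were well above background in miR-153 cells only. Enpp6 had an approximate bound of 2.52-fold higher. Myrf was near the detection limit, at signals of 5.96 and 26.7 intensity units, and its bound of 0.98-fold gives no least rise. Of 9 astrocyte markers, 1 was higher and 0 lower, with a median of 0.61, and 4 were higher with spike-in scaling. Pluripotent stem cells, which cycle fast, had 3 of 6 measured markers lower and 0 higher, with a median of -0.999 and summed signals of 9.06 and 4.40, and Zfp42 and Tcl1 were not well above background in either sample, while Pou5f1 was well above background in miR-153 cells only, at signals of 24.0 and 24.7 intensity units. Ependymal markers had 3 of 5 measured higher and 0 lower, with summed signals of 3.49 and 14.9, and fibroblast markers 4 of 7 higher and 1 lower, with 6.60 and 9.39. The part of these cells in the lower replication genes was not tested. The 12 progenitor markers had a median of 0.01, with 3 higher and 0 lower. Single ones ranged from -0.95 (Nes) to 2.44 (Hes5), with 6 below 0 and 6 above. Their summed signal was 724 and 723, most of it from Fabp7 (level 8.51 and 8.70) and Vim (8.10 and 7.39). Fabp7 and Vim differed in opposite directions, so the near-equal sums do not show that the markers were unchanged.

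Promoter sequence was examined because the members are known as a co-regulated set. RefSeq promoter windows (GRCm38.p6, 250 bases before to 50 after a start) were matched by symbol for 40 of the 48 members. The letters TTTNGCGC, an E2F-type word, were searched on both strands. They were in the windows of 11 of 40 members (27.5%), against 2.65% of 10663 measured protein-coding genes and 1.38% of all 32851 windows of that length. With TTTCCCGC, another such word added after the data were seen, the count was 16 of 40 (40.0%) against 4.76% of the same genes and 2.39% of all windows. Windows of alternative starts were pooled by gene, except in the share of all windows.

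The share with each word was also taken by size of difference, without a test. TTTNGCGC was in 29.6% of the 27 lower members and 23.1% of the other 13, and TTTCCCGC in 14.8% and 30.8%, so the order differed between the words. Either word was in 11 of the 27 matched members that were at least 2-fold lower or, like Orc1, had such a bound (40.7%), and in 5 of the other 13 (38.5%). CCAAT was in 25 of 40 members (62.5%, against 43.2% of measured protein-coding genes), and the short core GGCGC in 34 (85.0%, against 67.9%). TTTNGCGC overlaps GGCGC wherever its N is G, and matches on opposite strands may overlap. A match is a description of letters and not of a bound factor.

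The 200 bases before the start are shown for 6 members, 5′ to 3′ on the strand of the gene, with the E2F-type letters in capitals. Mcm6, Mcm5, Orc1 and Cdc6 were lower and hold the letters there, Orc3 was not lower and holds them, and Tk1 had the largest measured difference and holds none. Mcm6 is at chr1:128359706-128359905 on the minus strand, Mcm5 at chr8:75109309-75109508 on the plus strand and Orc1 at chr4:108579254-108579453 on the plus strand. Cdc6 is at chr11:98907951-98908150 on the plus strand, Orc3 at chr4:34614943-34615142 on the minus strand and Tk1 at chr11:117826015-117826214 on the minus strand.
Mcm6: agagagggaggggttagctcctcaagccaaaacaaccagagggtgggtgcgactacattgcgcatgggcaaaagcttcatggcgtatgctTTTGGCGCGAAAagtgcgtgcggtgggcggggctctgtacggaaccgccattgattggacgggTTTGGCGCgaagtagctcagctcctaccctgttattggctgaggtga
Mcm5: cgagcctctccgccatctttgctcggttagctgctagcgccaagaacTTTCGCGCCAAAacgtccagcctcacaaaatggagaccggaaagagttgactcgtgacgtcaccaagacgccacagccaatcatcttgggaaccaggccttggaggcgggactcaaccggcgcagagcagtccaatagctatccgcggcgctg
Orc1: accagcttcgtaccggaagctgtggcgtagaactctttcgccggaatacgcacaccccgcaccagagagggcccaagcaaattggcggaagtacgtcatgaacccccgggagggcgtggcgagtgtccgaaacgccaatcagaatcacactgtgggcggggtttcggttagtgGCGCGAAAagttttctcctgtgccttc
Cdc6: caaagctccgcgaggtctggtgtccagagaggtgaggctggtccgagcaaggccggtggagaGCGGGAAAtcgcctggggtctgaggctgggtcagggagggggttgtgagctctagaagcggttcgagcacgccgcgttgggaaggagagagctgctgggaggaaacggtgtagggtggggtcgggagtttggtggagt
Orc3: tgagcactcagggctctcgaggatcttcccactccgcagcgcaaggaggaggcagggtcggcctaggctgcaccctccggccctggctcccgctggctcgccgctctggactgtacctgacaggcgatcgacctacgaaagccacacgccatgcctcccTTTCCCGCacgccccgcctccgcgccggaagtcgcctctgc
Tk1: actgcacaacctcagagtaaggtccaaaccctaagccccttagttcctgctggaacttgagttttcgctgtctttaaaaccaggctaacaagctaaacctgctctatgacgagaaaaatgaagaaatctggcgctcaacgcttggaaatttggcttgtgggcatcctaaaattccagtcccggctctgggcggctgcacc

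Counting the last base before the start as -1, the letters in Mcm6 began at -110, -106 and -47, of which the -110 and -106 matches overlap on opposite strands. Mcm5 held 2 matches that also overlap on opposite strands, the later beginning at -149. Orc1 and Orc3 each held 1 match, at -27 and -41, with an approximate bound of 5.62-fold lower for Orc1 and a difference of 0.04 for Orc3.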

How the data were processed

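Total RNA of 1 control and 1 miR-153 sample was labelled with cyanine-3 and hybridised to 1-colour Agilent arrays, per the labels' protocols. Per the file headers, the arrays shared a slide. The authors deposited scanner intensity files. Per the submitters' processing notes the software was Agilent Feature Extraction 10.7.3.1, and the deposited processed signal is a linear intensity after background subtraction and detrending, per the file headers. The authors' value table holds the same intensity divided by a constant per array, 381 and 485, and was used as an alternative.

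Each signal was taken as log2 minus the 75th percentile of its array over non-control spots. Flagged outlier spots (229) were dropped, repeat spots were averaged and 55674 probes remained, 26296 of them matched to RefSeq (GRCm38.p6, for names only). A gene was measured when every spot of its brightest probe was well above background on both arrays. In counts of the comparison lists and markers, higher or lower means at least 2-fold, a rule of size and not a test. Elsewhere lower can also mean a smaller difference below 0, with its size given. For a gene well above background on 1 array, only an approximate least fold is given. It is taken against the higher of the gene's own level on the other array and the lowest level there of any probe well above background.

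The members and lists were chosen with earlier results of these data known. All 48 members may be named. From other lists, up to 3 genes farthest from 0 in each direction among those past 2-fold are named, with cell type markers beside them. A gene that this rule would name is not reported here. The alternatives tried were 4 other scalings, normexp with offset 50 (R 4.3.3 with limma 3.58.1), other filters and probes, a 1.5-fold rule and the authors' table. The steps were tested on simulated data. Columns of other samples numbered 0. The number of arrays limits the precision.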

Additional observations from a re-analysis of the deposited data

How the results depend on the processing

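Over 12 alternatives the count of members at least 2-fold lower stayed between 25 (spike-in scaling) and 32 (no filter on dim probes), or 40 with the 1.5-fold rule, and the count at least 2-fold higher was 0 in each. The median of the members ranged from -1.42 (bright probes only) to -1.02 (spike-in scaling). Spike-in scaling moved the median of all genes to 0.16 and put 66.3% of genes past 2-fold on the higher side, against 45.4% in the setting used. The median of the origin recognition genes moved from 0.04 to -0.45 with no filter on dim probes, where Orc1 enters, and to -0.45 with bright probes only, where 2 genes remain. Of 31 members at least 2-fold lower, 6 (Chaf1a, Fen1, Gins3, Orc2, Pola1 and Rfc1) came short of 2-fold under some alternative, and 0 others reached it. Among the members the sign turned for Orc4 alone, to -0.35 on its second brightest probe. Counts of the other lists moved as well. Spike-in scaling took the lower genes of chromatin behind the fork from 6 to 3 and the higher ones from 0 to 1, the higher astrocyte markers from 1 to 4 and the higher ependymal markers from 3 to 5, and left 0 in place of 1 lower fibroblast marker. Higher astrocyte markers numbered 2 under lowess, median centring, quantile normalization and normexp, and normexp left 2 of 4 higher fibroblast markers and 0 in place of 1 higher repair gene. With bright probes only, fewer genes were measured and the lower genes went from 19 to 9 of the other replication factors, from 10 to 5 in nucleotide synthesis, from 11 to 6 in repair, from 5 to 3 in the E2F and Rb family and from 3 to 1 among pluripotency markers, and the higher ones from 4 to 1 among fibroblast markers. Counting TTTCCCGC raised the promoters with E2F-type letters from 11 to 16. No paired analysis was possible because each group had 1 array. Dim probes near background, such as that of Orc1, limit what can be measured.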
